A study of Homo sapiens with 6 samples.

Results

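The genes described here are those that copy DNA and those that govern entry into S phase: the replicative helicase, its loading and activating factors, the polymerases, the sliding clamp, the single-strand binding proteins, the enzymes of nucleotide supply, and the G1/S regulators. They were chosen by symbol, 44 in all, with a minimum of 10 for the mean normalised level over the libraries. Of these, 43 matched a row of the table and all 43 met the minimum, with mean levels between 103 and 8290. They stand among 14763 genes that met it, of 57820 gene rows. UHRF1 did not match a row and has no values here, but its promoter is among those searched below.

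Polyadenylated RNA was sequenced from the human cell line hTert-HME1, mammary epithelium made immortal by the telomerase gene, after transfection with an siRNA and recovery. Epidermal growth factor (EGF) is the mitogen of the growth medium, and BRCA2 is a homologous recombination protein that also protects stalled replication forks. The study asked how loss of BRCA2 and growth without EGF change expression. There were 4 groups: BRCA2 siRNA without EGF at passage 6 (2 libraries, A and B), control siRNA with EGF at passage 6 (2 libraries, A and B), BRCA2 siRNA with EGF at passage 4 (1 library) and control siRNA with EGF at passage 4 (1 library). All cells were of the same immortalised line, and all had been transfected. In the passage 6 comparison siRNA and medium differed together, and between the BRCA2 siRNA groups medium and passage differed together, so that neither pair can be told apart. The labels call A and B biological replicates, but nothing says that they came from separate cultures, so the spread between them may be technical.

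Cells prepare for replication in G1 by loading the MCM helicase at origins, a step called licensing that needs the origin recognition complex, CDC6 and CDT1. At the start of S phase CDC45 and the GINS complex join the helicase and turn it on, primase and the polymerases follow, and the clamp PCNA holds the polymerases on DNA. Most of these genes are targets of the E2F transcription factors, which the retinoblastoma protein holds in check until growth factor signals raise cyclin D and then cyclin E activity.

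The letters of E2F sites were looked for in the RefSeq promoters (build GRCh38.p14), each running from 250 bases before to 50 bases after a gene's start. Promoters of helicase and licensing genes were picked by the passage 6 difference between BRCA2 siRNA without EGF and control. MCM6 had the largest of the helicase, and CDC6 and ORC6 the largest and smallest of the licensing genes. MCM5, the smallest of the helicase, had no promoter in the set searched, and CDT1 was added. Between passage 6 and passage 4 controls MCM6 differed most, CDC6 and ORC6 less, and CDT1 little. The sequences of these 4 promoters are shown. Each runs from 180 bases before to 20 bases after the start, 200 bases in all, 5′ to 3′ on the gene's strand, and capitals mark the E2F letters TTTGGCGC, TTTCCCGC, TTTCGCGC or TTTGCCGC on either strand, which can overlap. The positions are chr2:135876424-135876623 on the minus strand for MCM6, chr17:40287699-40287898 on the plus strand for CDC6, chr16:46689479-46689678 on the plus strand for ORC6 and chr16:88803609-88803808 on the plus strand for CDT1.
MCM6: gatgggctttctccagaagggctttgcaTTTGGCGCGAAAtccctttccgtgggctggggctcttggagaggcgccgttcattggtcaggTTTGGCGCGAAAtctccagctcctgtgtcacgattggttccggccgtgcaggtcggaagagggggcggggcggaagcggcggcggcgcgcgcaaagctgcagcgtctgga
CDC6: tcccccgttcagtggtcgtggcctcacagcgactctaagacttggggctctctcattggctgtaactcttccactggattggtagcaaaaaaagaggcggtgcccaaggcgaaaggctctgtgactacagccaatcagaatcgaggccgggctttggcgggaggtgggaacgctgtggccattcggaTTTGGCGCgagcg
ORC6: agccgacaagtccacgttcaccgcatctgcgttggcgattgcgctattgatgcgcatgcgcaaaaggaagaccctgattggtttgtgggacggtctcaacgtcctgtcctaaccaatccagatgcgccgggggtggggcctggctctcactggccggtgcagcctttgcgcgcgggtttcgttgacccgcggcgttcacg
CDT1: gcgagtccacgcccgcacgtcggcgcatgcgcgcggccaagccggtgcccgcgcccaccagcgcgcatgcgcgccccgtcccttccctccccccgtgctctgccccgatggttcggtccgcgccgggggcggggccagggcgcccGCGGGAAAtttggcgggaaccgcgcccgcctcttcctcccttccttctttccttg
The MCM6 promoter held 4 matches in 2 separate stretches, each stretch matching on both strands. CDC6 and CDT1 held 1 match each, and ORC6 held 0. A match describes the letters only, and no binding was measured. Only these strings were searched, so a promoter without a match may still hold other forms of an E2F site.

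Of 38 listed members with a promoter in the RefSeq table, 19 (50%) held at least 1 E2F match. Both counts include UHRF1, which has no expression values. The share was 5.41% of 10456 promoters of tested genes and 3.33% of all 27305 promoters. The CCAAT box, the letters CCAAT, was in 55.3% of the members' promoters, against 37% of those of tested genes. The cell cycle homology region, the letters TTTGAA, which marks genes of mitosis, was in 1 member (RRM1, 2.63%), against 9.9% of the promoters of tested genes and 70% of those of 20 mitosis genes. The members' promoters thus held the E2F letters more often and the mitosis letters less often than those of tested genes, as counts with no test. Among members with both a promoter and values, the median log2 difference between passage 6 and passage 4 controls was 1.51 for the 4 with 2 or more separate E2F stretches (MCM3, MCM6, MCM7 and E2F1), 1.08 for the 14 with 1 stretch and 0.84 for the 19 with none. Gene by gene the letters did not order the values: CDT1 held a match and stood 0.24 apart, while MCM10 and RRM2 held none and stood 1.90 and 1.52 apart.

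**Figure D1:**
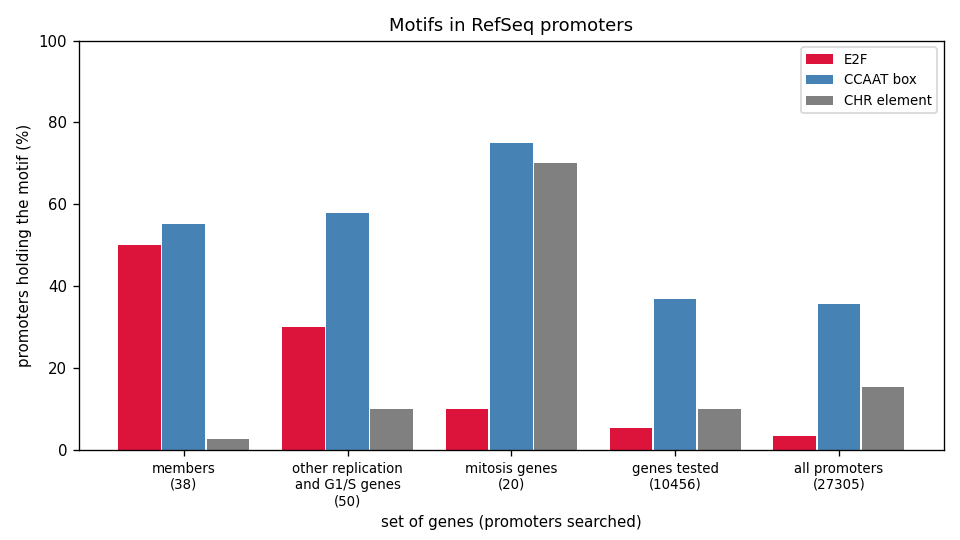
Share of promoters (%, y axis) that hold each motif in 5 sets of genes (x axis, with the number of promoters searched), as bars for the E2F letters, the CCAAT box and the cell cycle homology region (CHR element). The E2F bar is at 50% for the members and 10% for the mitosis genes, and the CHR bar is at 2.63% for the members and 70% for the mitosis genes.

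Before the results, 3 facts about the libraries bear on them. First, the passage 6 controls A and B were far closer to each other than the other replicate pair: the SD of their differences over all tested genes was 0.119 on the log2 scale, against 0.308 for the BRCA2 siRNA libraries without EGF, and calls below depend on which pair sets the spread. Second, the targeted gene BRCA2 had log2 values of 11.15 and 10.89 under BRCA2 siRNA without EGF and 11.25 and 11.24 in the passage 6 controls, a difference of -0.23 ± 0.11 (SE, adjusted p = 0.23), and at passage 4 it had 10.88 under BRCA2 siRNA and 10.19 in the control. The message was thus 0.69 higher, not lower, in the passage 4 library labelled BRCA2 siRNA than in its control. Directions drawn from either passage 4 library rest on its label. The members differed the same way between these 2 libraries, by a median of 0.89. Between passage 6 and passage 4 controls BRCA2 stood 1.05 higher at passage 6, and the members a median of 1.01 higher. Whether the BRCA2 gap at passage 4 goes with the label or with the members' shift was not tested. Finally, all 7 basal mammary markers were detected, with a summed level of 550907 and 498170 under BRCA2 siRNA without EGF, 312573 and 306416 in the passage 6 controls, 284037 in the library labelled BRCA2 siRNA at passage 4 and 335833 in the passage 4 control. Of 8 fibroblast markers, 6 met the minimum and all 6 had higher values under BRCA2 siRNA without EGF, with sums of 6808 and 7003 against 2181 and 2550 in the passage 6 controls, and COL1A2 and PDGFRA stayed under the minimum. At passage 4 the fibroblast sum was 4306 in the library labelled BRCA2 siRNA and 2395 in the control. Of 3 endothelial markers KDR alone met the minimum and CDH5 was listed at 0 in every library, and the summed level was 569 and 745 under BRCA2 siRNA without EGF, 266 and 294 in the passage 6 controls, 355 in the library labelled BRCA2 siRNA at passage 4 and 1079 in the passage 4 control. Of 7 luminal markers 5 met the minimum, 2 of them higher under BRCA2 siRNA without EGF at passage 6, with sums of 3248 and 3009 against 4217 and 4089 in the controls of that passage, and 3685 in the library labelled BRCA2 siRNA at passage 4 against 4617 in its control. KRT18, a luminal keratin, fell by 0.85 at passage 6 (limma, adjusted p = 0.0162). Of 4 haematopoietic markers none met it, and CD3E was listed at 0 in every library. The part of these marker shifts in the results was not tested.

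The members moved as a block between libraries. Relative to each gene's mean over the 6 libraries, the median of the 43 members was 0.10 in replicate A and -0.37 in replicate B of BRCA2 siRNA without EGF, 0.32 and 0.39 in passage 6 controls A and B, 0.19 in the library labelled BRCA2 siRNA at passage 4 and -0.66 in the passage 4 control, on the log2 scale. The same medians over all tested genes lay between -0.03 and 0.03. The passage 4 control was the lowest library for 35 of 43 members (81.4%), against 23.9% of all tested genes. Replicate B without EGF was the lowest for the other 8 (18.6%, against 22.4% of all genes): CCNE1, CDT1, PCNA, PRIM2, RFC4, RPA1, RPA2 and RPA3. Both passage 6 controls lay above the other 4 libraries for 34 members (79.1%), against 11.3% of all tested genes. In bulk RNA such as this, fewer cells in S phase and less of each message per cell cannot be told apart.

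**Figure D2:**
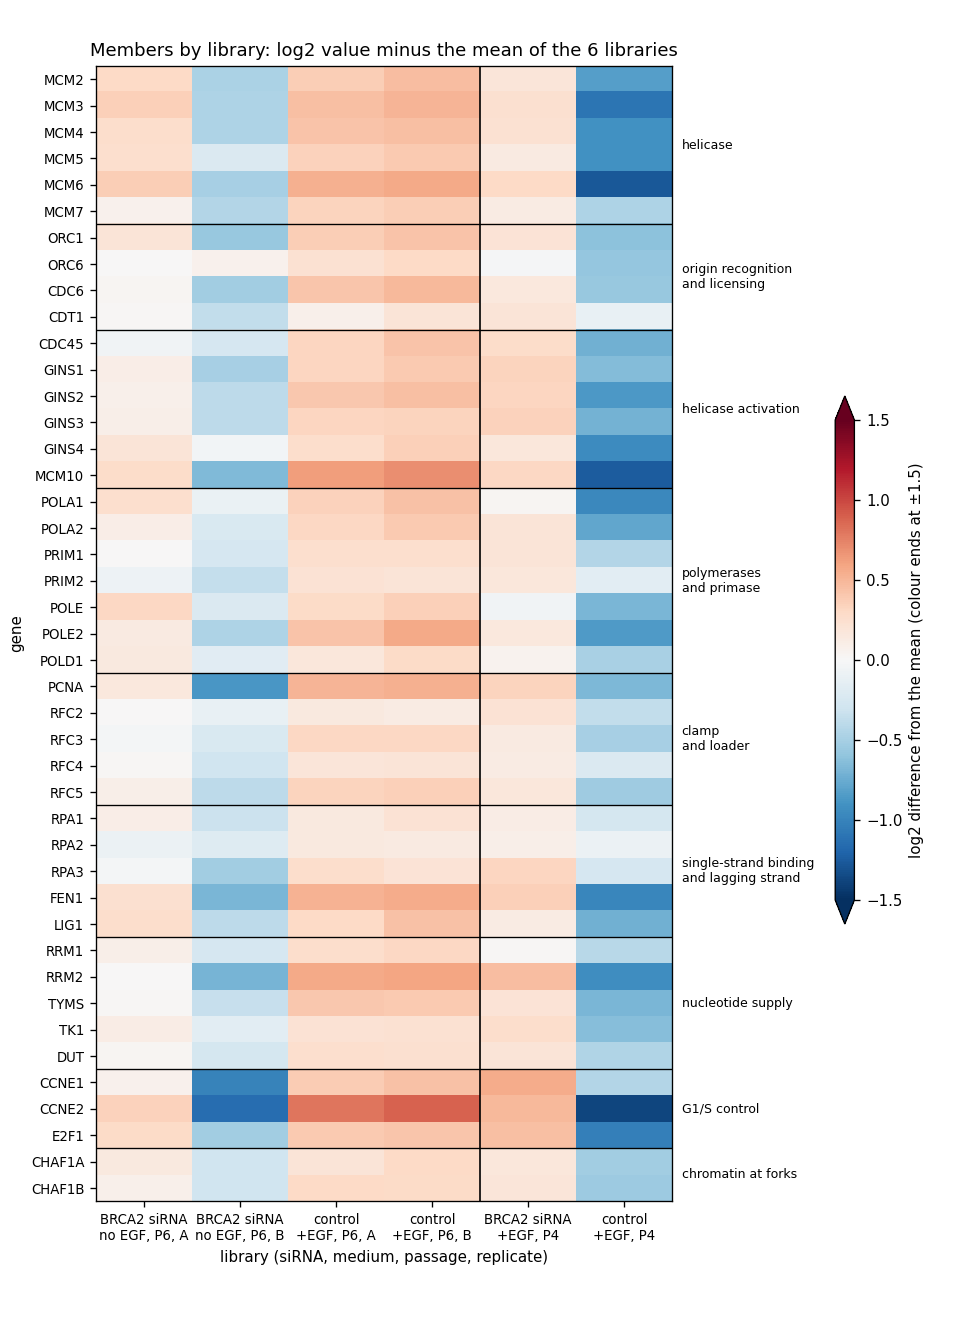
Log2 value of each of the 43 members (rows, grouped by role) minus its mean over the 6 libraries (columns), as colour from blue (below the mean) to red (above), with colour ending at 1.5 either way. The passage 4 control column is blue in nearly every row and lowest for 35 members, and the passage 6 control columns are red.

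At passage 6, BRCA2 siRNA without EGF against control siRNA with EGF, all 43 members had a lower mean without EGF (against 52.7% of all tested genes), and none passed the test. The median log2 difference of the 43 members was -0.48, or 1.39-fold lower, with a range of -1.24 (CCNE2) to -0.19 (RFC2), against a median of -0.02 over all tested genes. At an adjusted p below 0.05 (limma, Benjamini-Hochberg over 14763 genes) 0 of 43 members were called in either direction, where 2.88% of all tested genes were called lower and 3.56% higher. The lowest adjusted p was 0.0548 (CDC45). At an unadjusted p below 0.05, 22 members (51.2%) were lower, against 17.7% of all tested genes, and 0 were higher, against 13.8%. Both libraries without EGF lay below both controls for 42 members (97.7%), against 35.7% of all tested genes. The exception was POLE, whose replicate A value of 11.23 lay between those of the controls.

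The calls and the sizes depended on which replicate without EGF was kept. Without replicate A of BRCA2 siRNA without EGF, the members' median difference was -0.72, and without replicate B it was -0.23. Over all tested genes the median stayed between -0.03 and -0.02 with 1 library left out at a time. The median of each sub-complex was likewise nearer 0 without replicate B: that of the helicase was -0.90 without replicate A and -0.15 without replicate B, and that of the G1/S regulators -1.41 and -0.35, so the sizes of the passage 6 differences below carry this limit. In those fits the spread came from the close passage 6 controls alone and the remaining library was assumed to vary like them. Counts of calls from those fits are therefore not read as results.

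Between the controls, which shared siRNA and medium, all 43 members were higher at passage 6 than at passage 4 (against 47.6% of all tested genes), with no overlap (43.9% of all genes), and 27 (62.8%) rose at an adjusted p below 0.05, against 7.71% of all tested genes. None fell, where 12.4% of all tested genes did. The median log2 difference of the members was 1.01, or 2.02-fold, with a range of 0.23 (RPA2) to 2.22 (CCNE2), against -0.03 over all tested genes. The passage 4 group was 1 library, whose spread was taken from the other groups. The calls depended on the passage 6 controls: they did not hold without control A, without control B, or with the pair averaged into 1 library. The median difference stayed between 0.98 and 1.04 with 1 library left out at a time. Leaving out a replicate without EGF left the close controls alone to set the spread, and counts from those fits are not read as results. The result also rests on the label of the passage 4 control: relative to the library labelled BRCA2 siRNA at passage 4, which had more BRCA2 message, passage 6 controls A and B were higher by a median of only 0.12 and 0.18. Since this comparison and that of BRCA2 siRNA without EGF at passage 6 share the passage 6 controls, their values are given side by side below and no agreement between them is read as a result. Calls between controls named by sub-complex below carry the same dependence on the passage 6 controls.

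**Figure D3:**
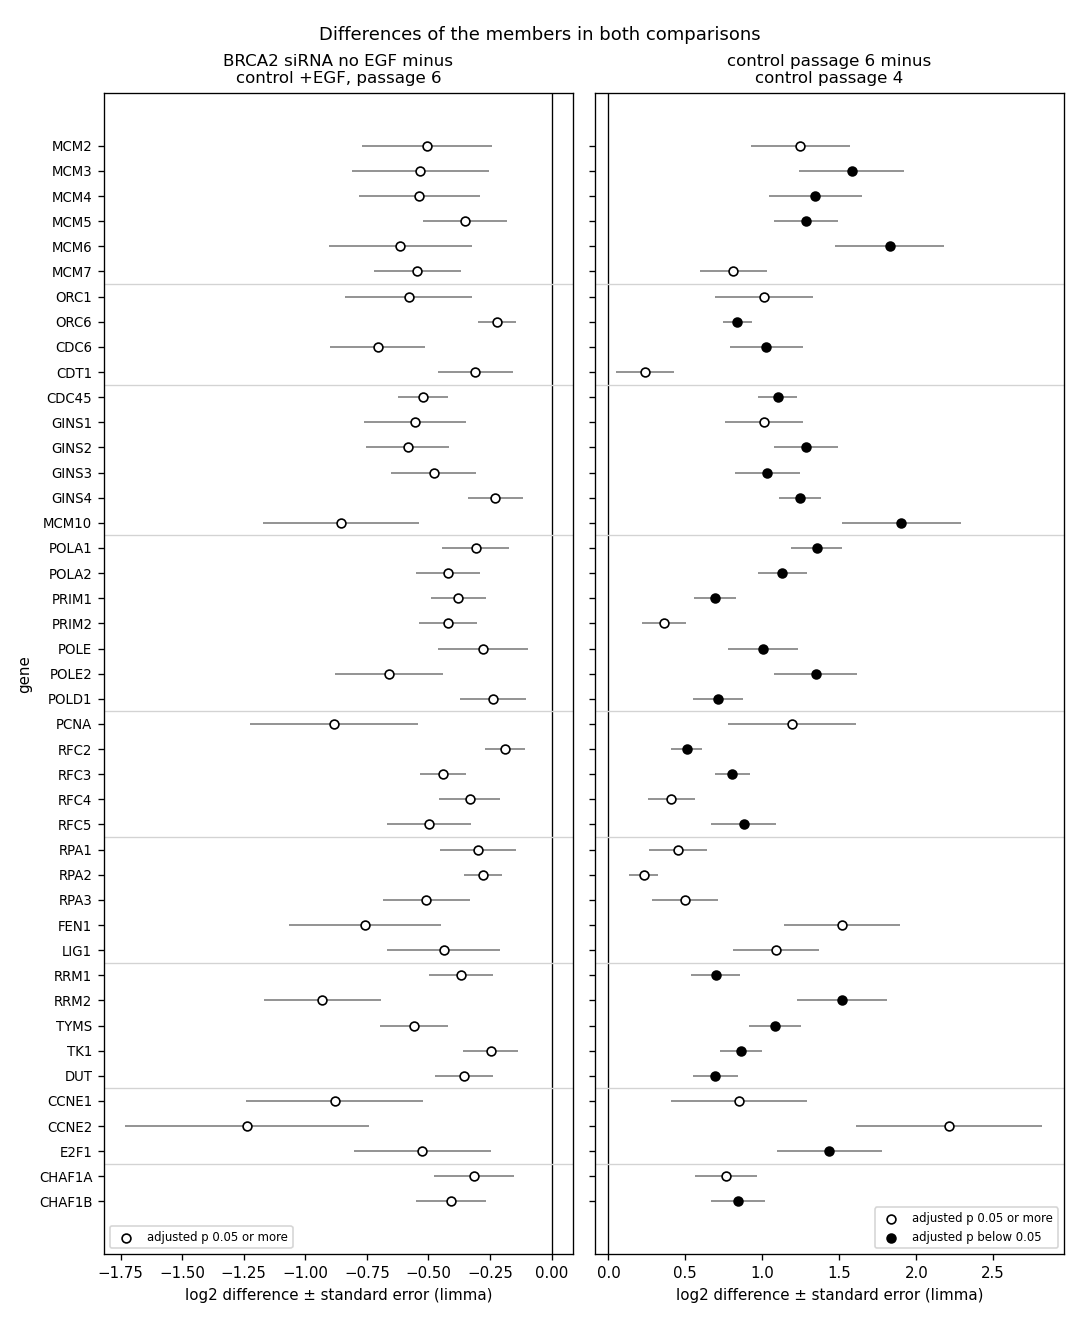
Log2 difference of each member (x axis, with the limma standard error as a bar) for BRCA2 siRNA without EGF minus control at passage 6 (left) and control passage 6 minus passage 4 (right), in rows grouped by role. Every point on the left is open, meaning an adjusted p of 0.05 or more, and lies below 0, and on the right 27 of 43 points are filled, meaning an adjusted p below 0.05.

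Licensing genes came first in the order of events. ORC1, the largest subunit of the origin recognition complex and the one whose protein falls after S phase begins, had log2 values of 9.27 and 8.51 under BRCA2 siRNA without EGF, 9.44 and 9.50 in the passage 6 controls, 9.27 in the library labelled BRCA2 siRNA at passage 4 and 8.45 in the passage 4 control. Replicate B without EGF thus stood close to the passage 4 control, and replicate A close to the rest. Its difference was -0.58 ± 0.26 (SE, adjusted p = 0.201) at passage 6 and 1.01 ± 0.32 between controls (adjusted p = 0.0815).

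ORC6, the smallest subunit, had 9.91 and 9.97 without EGF, 10.12 and 10.19 in the passage 6 controls, 9.88 in the library labelled BRCA2 siRNA at passage 4 and 9.32 in the passage 4 control. It was the only member whose replicates without EGF were not ordered with A above B. It rose by 0.84 ± 0.09 between the controls (adjusted p = 0.0231), and the passage 6 difference without EGF was -0.22 ± 0.08 (adjusted p = 0.131). CDC6, the ATPase that helps place the helicase on origins, had 11.02 and 10.47 without EGF, 11.41 and 11.48 in the passage 6 controls, 11.15 in the library labelled BRCA2 siRNA at passage 4 and 10.42 in the passage 4 control. Both libraries without EGF lay below both controls of their passage, at -0.70 ± 0.19 (adjusted p = 0.0912), and CDC6 rose by 1.03 ± 0.24 between the controls (adjusted p = 0.0463). CDT1, its partner in loading, had 8.45 and 8.06 without EGF, 8.51 and 8.63 in the passage 6 controls, 8.63 in the library labelled BRCA2 siRNA at passage 4 and 8.33 in the passage 4 control. CDT1 was among the flattest members, with 0.24 ± 0.19 between the controls (adjusted p = 0.381) and -0.31 ± 0.15 at passage 6 (adjusted p = 0.239).

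All 6 helicase subunits lay lower without EGF (52.7% of all tested genes did) and higher in passage 6 than in passage 4 controls (47.6%). MCM3, MCM4, MCM5 and MCM6 rose between the controls (7.71% of all tested genes did), while MCM2 and MCM7 did not pass. The median log2 difference was -0.54 at passage 6 and 1.31 between controls. MCM6 had log2 values of 11.72 and 10.85 without EGF, 11.88 and 11.92 in the passage 6 controls, 11.64 in the library labelled BRCA2 siRNA at passage 4 and 10.07 in the passage 4 control. It showed the widest span of the ring, with -0.61 ± 0.29 at passage 6 (adjusted p = 0.219) and a rise of 1.83 ± 0.36, or 3.55-fold, between controls (adjusted p = 0.0359). MCM5 had 11.26 and 10.78 without EGF, 11.35 and 11.40 in the passage 6 controls, 11.14 in the library labelled BRCA2 siRNA at passage 4 and 10.09 in the passage 4 control. Its differences were -0.35 ± 0.17 (adjusted p = 0.23) and 1.28 ± 0.21 (adjusted p = 0.0278). MCM2 had 9.93 and 9.15 without EGF, 10 and 10.09 in the passage 6 controls, 9.80 in the library labelled BRCA2 siRNA at passage 4 and 8.80 in the passage 4 control. Its differences were -0.51 ± 0.26 (adjusted p = 0.255) and 1.25 ± 0.32 (adjusted p = 0.0572), and 30.7% of its exon bases lie opposite a long antisense gene, whose reads cannot be told apart where counting ignores strand.

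Levels of the ring's subunits were compared per kilobase of exon, as 2 to the deposited value divided by the length of all exons in GENCODE v29. On that scale MCM4 averaged 1738 without EGF and 2445 in the passage 6 controls, MCM3 1153 and 1603, MCM7 1043 and 1499, MCM6 698.4 and 1023, MCM5 596.9 and 750.6, and MCM2 212.9 and 291.8. MCM4 was the highest and MCM2 the lowest in each of the 6 libraries. MCM3 and MCM7 changed places between libraries: in the passage 4 control MCM3 had a level of 536.4 per kilobase and MCM7 853.5, and in passage 6 control A MCM3 had 1567 and MCM7 1483. MCM7 varied least over the libraries and MCM6 most, with ranges of 0.83 and 1.85 on the log2 scale.

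The factors that turn the helicase on had medians of -0.54 at passage 6 and 1.17 between controls. Of the 6, 5 rose between controls (against 7.71% of all tested genes), GINS1 being the exception with 1.01 ± 0.25 (adjusted p = 0.053). CDC45 had 10.34 and 10.14 without EGF, 10.70 and 10.82 in the passage 6 controls, 10.66 in the library labelled BRCA2 siRNA at passage 4 and 9.66 in the passage 4 control. The replicates without EGF were closer together here than for most members, and both lay below every library but the passage 4 control. Its difference at passage 6 was -0.52 ± 0.10 (adjusted p = 0.0548), and it rose by 1.10 ± 0.12 between controls (adjusted p = 0.0231).

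MCM10, a scaffold that joins the helicase to polymerase alpha, had 9.39 and 8.45 without EGF, 9.74 and 9.81 in the passage 6 controls, 9.43 in the library labelled BRCA2 siRNA at passage 4 and 7.87 in the passage 4 control. It had the widest range among these factors, with -0.86 ± 0.32 at passage 6 (adjusted p = 0.149) and a rise of 1.90 ± 0.39 between controls (adjusted p = 0.0384). GINS4, a subunit of the GINS complex, had 9.12 and 8.88 without EGF, 9.18 and 9.27 in the passage 6 controls, 9.09 in the library labelled BRCA2 siRNA at passage 4 and 7.98 in the passage 4 control. The passage 4 control alone stood far from the rest. GINS4 rose by 1.24 ± 0.14 between the controls (adjusted p = 0.0231), and the difference without EGF was -0.23 ± 0.11 (adjusted p = 0.234). An antisense gene covers 21.2% of the exon bases of GINS4.

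Among the polymerases and primase the medians were -0.38 at passage 6 and 1.005 between controls. Here 6 of 7 rose between controls, against 7.71% of all tested genes. PRIM2, the large primase subunit, was the exception at 0.36 ± 0.14 (adjusted p = 0.13). POLE2, the second subunit of the leading-strand polymerase epsilon, had log2 values of 7.60 and 7.003 without EGF, 7.89 and 8.03 in the passage 6 controls, 7.62 in the library labelled BRCA2 siRNA at passage 4 and 6.62 in the passage 4 control. It showed the largest difference of these genes at passage 6, -0.66 ± 0.22 (adjusted p = 0.124), and rose by 1.35 ± 0.27 between controls (adjusted p = 0.0371). POLD1, the catalytic subunit of the lagging-strand polymerase delta, had 9.44 and 9.12 without EGF, 9.46 and 9.58 in the passage 6 controls, 9.34 in the library labelled BRCA2 siRNA at passage 4 and 8.80 in the passage 4 control. Its replicate A without EGF nearly reached the controls. The passage 6 difference was the smallest of these genes at -0.24 ± 0.13 (adjusted p = 0.28), and it rose by 0.71 ± 0.16 between controls (adjusted p = 0.0457). POLA1 and POLE, the catalytic subunits of polymerases alpha and epsilon, rose by 1.35 ± 0.17 and 1.005 ± 0.23 (adjusted p = 0.0235 and 0.0446).

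The clamp PCNA had larger differences than the loader subunits RFC2, RFC3, RFC4 and RFC5 in both comparisons, but at passage 6 mainly in replicate B. In replicate A without EGF it stood -0.37 from the mean of the controls, against -0.34 (RFC3) to -0.13 (RFC2). In replicate B it stood at -1.40, against -0.74 (RFC5) to -0.24 (RFC2). PCNA had 11.85 and 10.82 without EGF, 12.21 and 12.23 in the passage 6 controls, 12.03 in the library labelled BRCA2 siRNA at passage 4 and 11.03 in the passage 4 control. Its replicates without EGF were 1.03 apart, a gap exceeded among members by CCNE2 and CCNE1 alone, and replicate B was the lowest library. Neither difference passed, with -0.88 ± 0.34 at passage 6 (adjusted p = 0.162) and 1.19 ± 0.42 between controls (adjusted p = 0.102). RFC2, a loader subunit, had 9.38 and 9.27 without EGF, 9.52 and 9.51 in the passage 6 controls, 9.59 in the library labelled BRCA2 siRNA at passage 4 and 9.01 in the passage 4 control. Its span was narrow, with -0.19 ± 0.08 at passage 6 (adjusted p = 0.19) and a rise of 0.51 ± 0.10 between controls (adjusted p = 0.0356). RFC3 and RFC5 rose by 0.81 ± 0.11 and 0.88 ± 0.21 between controls (adjusted p = 0.0245 and 0.0488), and RFC4 did not pass at 0.41 ± 0.15 (adjusted p = 0.114).

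None of the 5 single-strand binding and lagging-strand genes passed in either comparison, with medians of -0.44 at passage 6 and 0.50 between controls. Of all tested genes 2.88% were called lower at passage 6 and 7.71% higher between controls. RPA1 and RPA2, subunits of replication protein A, which coats single-stranded DNA in replication and repair alike, had narrower ranges than RPA3, FEN1 and LIG1. RPA2 had 10.22 and 10.11 without EGF, 10.45 and 10.44 in the passage 6 controls, 10.39 in the library labelled BRCA2 siRNA at passage 4 and 10.21 in the passage 4 control. Its 6 values spanned 0.34, the narrowest range of the members, with -0.28 ± 0.08 at passage 6 (adjusted p = 0.091) and 0.23 ± 0.09 between controls (adjusted p = 0.136). FEN1, the nuclease that trims Okazaki fragments, had 10.46 and 9.54 without EGF, 10.74 and 10.77 in the passage 6 controls, 10.58 in the library labelled BRCA2 siRNA at passage 4 and 9.24 in the passage 4 control. Its differences were as wide as those of the helicase, at -0.76 ± 0.31 (adjusted p = 0.175) and 1.52 ± 0.38 (adjusted p = 0.0528). LIG1, which seals the fragments, differed by -0.44 ± 0.23 (adjusted p = 0.255) and 1.09 ± 0.28 (adjusted p = 0.0565).

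All 5 genes of nucleotide supply rose between controls (against 7.71% of all tested genes), with a median of 0.86. Their median at passage 6 was -0.37. RRM2, the subunit of ribonucleotide reductase that limits the supply of deoxynucleotides, had 12.59 and 11.89 without EGF, 13.16 and 13.18 in the passage 6 controls, 13.05 in the library labelled BRCA2 siRNA at passage 4 and 11.66 in the passage 4 control. Both libraries without EGF lay well below both controls of their passage, at -0.93 ± 0.24 (adjusted p = 0.0819), and RRM2 rose by 1.52 ± 0.29, or 2.86-fold, between controls (adjusted p = 0.0354). Its partner RRM1, present through the cell cycle, differed by -0.37 ± 0.13 (adjusted p = 0.141) and rose by 0.70 ± 0.16 (adjusted p = 0.0466). TYMS, which makes thymidylate, had 10.06 and 9.70 without EGF, 10.45 and 10.43 in the passage 6 controls, 10.25 in the library labelled BRCA2 siRNA at passage 4 and 9.36 in the passage 4 control. Its differences were -0.56 ± 0.14 (adjusted p = 0.0776) and 1.08 ± 0.17 (adjusted p = 0.0264), and 58.2% of its exon bases lie opposite exons of ENOSF1. TK1, which salvages thymidine, had 10.09 and 9.82 without EGF, 10.20 and 10.21 in the passage 6 controls, 10.24 in the library labelled BRCA2 siRNA at passage 4 and 9.34 in the passage 4 control. It differed little without EGF, at -0.25 ± 0.11 (adjusted p = 0.207), and rose by 0.86 ± 0.14 between controls (adjusted p = 0.0272). PCNA, RRM2 and DUT have processed pseudogenes, and the labels do not say how reads shared with them were counted. Another gene on the same strand overlaps 27.9% of the exon bases of RRM2. Such overlaps also cover 53.7% for POLA2, 26% for PRIM1, 12.1% for POLD1 and 2.13% for FEN1. Reads from these stretches cannot be told apart by strand.

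By their medians, -0.88 at passage 6 and 1.43 between controls, the G1/S regulators had the widest differences of the sub-complexes. CCNE2, an E-type cyclin that activates CDK2 at the G1/S boundary, had 7.79 and 6.30 without EGF, 8.24 and 8.32 in the passage 6 controls, 7.92 in the library labelled BRCA2 siRNA at passage 4 and 6.06 in the passage 4 control. Replicate B without EGF stood near the passage 4 control, 1.49 below replicate A. Its differences were the largest of any member, at -1.24 ± 0.49 (adjusted p = 0.17) and 2.22 ± 0.61 (adjusted p = 0.0636), and neither passed. Exons of INTS8 cover 47.5% of its exon bases on the other strand. CCNE1, the related cyclin, had 6.65 and 5.59 without EGF, 6.97 and 7.03 in the passage 6 controls, 7.15 in the library labelled BRCA2 siRNA at passage 4 and 6.16 in the passage 4 control. It was highest in the library labelled BRCA2 siRNA at passage 4, and differed by -0.88 ± 0.36 (adjusted p = 0.176) and 0.85 ± 0.44 (adjusted p = 0.211). E2F1, a transcription factor that activates the replication genes and whose own promoter held 2 E2F stretches, had 7.36 and 6.55 without EGF, 7.46 and 7.49 in the passage 6 controls, 7.53 in the library labelled BRCA2 siRNA at passage 4 and 6.04 in the passage 4 control. It rose by 1.43 ± 0.34 between controls (adjusted p = 0.0491) and differed by -0.52 ± 0.28 at passage 6 (adjusted p = 0.262).

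CHAF1A and CHAF1B, subunits of the chromatin assembly factor that deposits histones behind the fork, were intermediate. CHAF1A had 10.45 and 10.01 without EGF, 10.49 and 10.59 in the passage 6 controls, 10.47 in the library labelled BRCA2 siRNA at passage 4 and 9.78 in the passage 4 control. It did not pass, with -0.32 ± 0.16 (adjusted p = 0.25) and 0.76 ± 0.20 (adjusted p = 0.0579). CHAF1B had 9.42 and 9.05 without EGF, 9.65 and 9.64 in the passage 6 controls, 9.52 in the library labelled BRCA2 siRNA at passage 4 and 8.80 in the passage 4 control. It rose by 0.84 ± 0.18 between controls (adjusted p = 0.04) and differed by -0.41 ± 0.14 at passage 6 (adjusted p = 0.137).

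**Figure D4:**
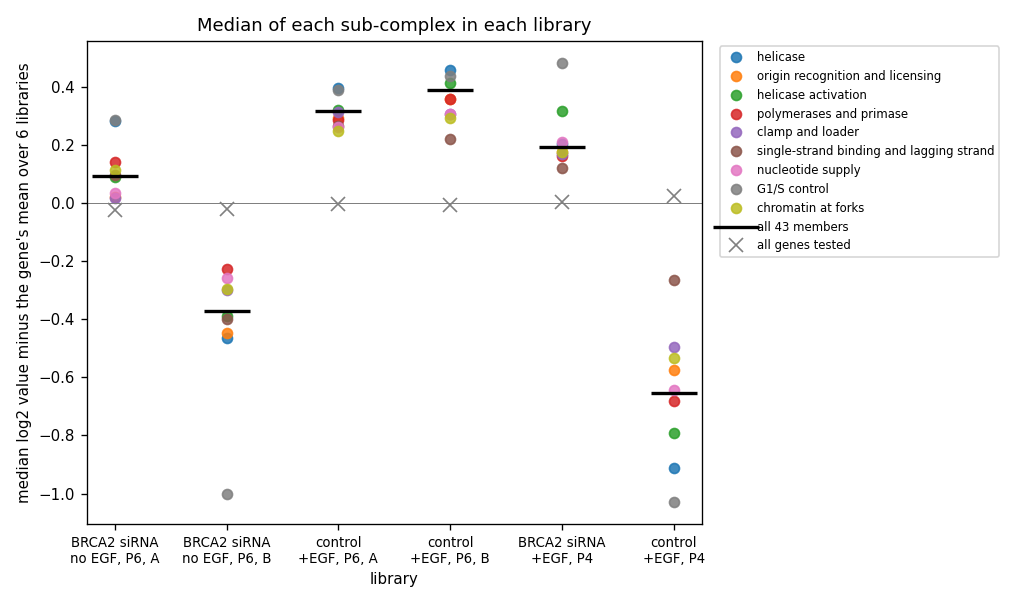
Median log2 value of each sub-complex minus its genes' means over the 6 libraries (y axis) in each library (x axis), as coloured points, with a bar for the median of all 43 members and a cross for all tested genes. The members' bar is at 0.39 in passage 6 control B and -0.66 in the passage 4 control, and the crosses stay near 0.

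Under the BRCA2 siRNA label, passage 6 without EGF against passage 4 with EGF, the members had a median log2 difference of -0.32, against -0.02 over all tested genes. Of 43 members, 40 were lower (against 52% of all tested genes), the exceptions being ORC6, POLA1 and POLE, and 31 (72.1%) had both passage 6 libraries below the passage 4 library, against 41.9% of all tested genes. However, 0 passed in either direction, against 8.89% of all tested genes called lower and 7.41% higher. At an unadjusted p below 0.05, 5 members were lower (CDC45, PRIM2, RFC2, RPA3 and RRM2), or 11.6% against 20.2% of all tested genes, and 0 were higher, against 17.1%. The lowest adjusted p was 0.0808 (CDC45), whose difference was -0.42. The median was -0.55 without replicate A of BRCA2 siRNA without EGF and -0.11 without replicate B.

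The passage difference under BRCA2 siRNA, where EGF was also left out at passage 6, minus that under control siRNA was tested as 1 contrast, in which siRNA and medium cannot be told apart. All 43 members were below 0 (47.3% of all tested genes were), at a median of -1.34 against 0.03 over all tested genes. As lower, 3 (6.98%) passed, against 1.65% of all tested genes, and as higher 0, against 2.21%. At an unadjusted p below 0.05, 41 (95.3%) were lower, against 14.4%, and 0 higher, against 16.5%. The 3 that passed at the adjusted threshold were CDC45 (-0.42 under BRCA2 siRNA, 1.10 under control siRNA, difference -1.52 ± 0.18, adjusted p = 0.0351), GINS4 (-0.09 and 1.24, difference -1.34 ± 0.20, adjusted p = 0.0465) and RFC3 (-0.27 and 0.81, difference -1.07 ± 0.16, adjusted p = 0.0473). Each of the groups in this contrast enters with its own libraries, 4 groups in all, and the same number is the passage 6 difference between siRNAs minus the passage 4 difference between siRNAs. These calls too depended on single libraries: they did not hold without passage 6 control A or B. With 1 passage 6 library left out at a time, the median stayed between -1.55 and -1.13.

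At passage 4, with EGF in both, the library labelled BRCA2 siRNA was above the control for all 43 members (45.7% of all tested genes were), with a median log2 difference of 0.89 against -0.04 over all tested genes. Of the members, 37 (86%) were at least 0.5 higher and 0 at least 0.5 lower, against 8.05% and 9.27% of all tested genes, and 15 were at least 1 higher, against 1.17%. With 1 library on each side there is no replicate check and no test. The same passage 4 control also enters the difference between controls and the difference of differences, so these comparisons are not separate results. The differences were 1.86 for CCNE2, 1.57 for MCM6, 1.56 for MCM10 and 1.48 for E2F1 at the upper end, and 0.18 for RPA2 and 0.30 for CDT1 at the lower end. The library labelled BRCA2 siRNA stood close to the passage 6 controls, below control A by a median of 0.12 and below control B by 0.18. It lay within or above their range for 8 members (18.6%, against 57% of all tested genes): CCNE1, CDT1, E2F1, GINS1, GINS3, RFC2, RPA3 and TK1.

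The replicates without EGF also differed along the same genes. Replicate A exceeded replicate B for 42 of 43 members (97.7%), against 50.7% of all tested genes, with a median of 0.47 for the members and 0.00 over all tested genes. The difference between A and B shares no library with that between the controls of passage 6 and passage 4, and across the 43 members Pearson's r between them was 0.70 and Spearman's rho 0.64. This is a correlation across genes, which are not independent replicates. It was 0.50 (r) over all 14763 tested genes, 0.81 over 61 other replication and G1/S genes and 0.53 over 25 mitosis genes, so that much of it is not particular to the members. CCNE2, with differences of 1.49 between A and B and 2.22 between the controls, lay at the upper end of both, and RPA2, with 0.10 and 0.23, near the lower end of both.

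**Figure D5:**
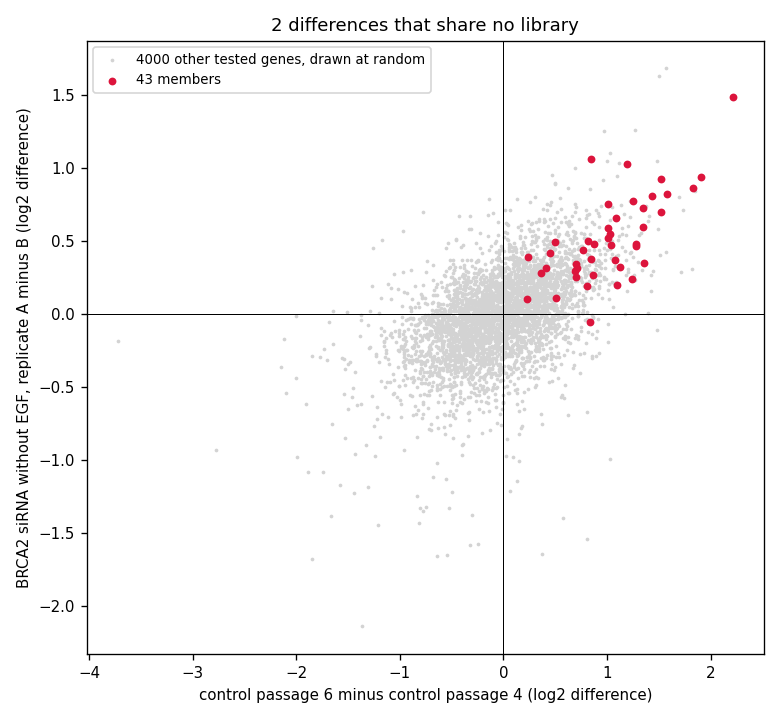
Log2 difference between replicates A and B of BRCA2 siRNA without EGF (y axis) against that between passage 6 and passage 4 controls (x axis), with the 43 members in red and 4000 other tested genes, drawn at random, in grey. All members but ORC6 lie above 0 on the y axis and all lie right of 0 on the x axis.

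Of 62 other replication and G1/S genes listed by role, 61 met the minimum. Their median log2 difference was -0.32 at passage 6, 0.66 between the controls and 0.48 at passage 4, the same signs as the members' at smaller sizes. At passage 6, 3 fell without EGF (4.92%, against 2.88% of all tested genes): TOP1, the topoisomerase that relieves twist ahead of forks, POLE3, a small subunit of polymerase epsilon, and TIPIN, of the fork protection complex. TOP1 had 12.87 and 12.82 without EGF and 13.46 and 13.45 in the passage 6 controls, a fall of 0.61 ± 0.07 (adjusted p = 0.0204). TIPIN had 8.97 and 8.90 without EGF and 9.41 and 9.38 in the controls, and POLE3 had 10.76 and 10.72 without EGF and 11.11 and 11.15 in the controls (adjusted p = 0.0427 and 0.0473). In these 3 genes the replicates without EGF lay at most 0.07 apart (TIPIN), against a median of 0.47 for the members. 0 of the 61 passed as lower with the passage 6 controls averaged into 1 library or with either left out.

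Between controls 23 of the 61 rose (37.7%, against 7.71% of all tested genes), and 1 fell, CDKN1A (1.64%, against 12.4%). Among the largest rises were those of CLSPN, the checkpoint adaptor claspin (2.00 ± 0.38, adjusted p = 0.0351), E2F8, a repressive E2F (1.51 ± 0.19, adjusted p = 0.0235), HELLS, a chromatin remodeller (1.496 ± 0.23, adjusted p = 0.0264) and SAMHD1, which degrades deoxynucleotides (1.33 ± 0.30, adjusted p = 0.0452). CDKN1A, the CDK inhibitor p21, had 10.61 and 10.64 in passage 6 controls and 11.35 in the passage 4 control, a fall of 0.73 ± 0.14 (adjusted p = 0.0354). Under the BRCA2 siRNA label it had 10.14 and 10.42 at passage 6 without EGF and 10.97 at passage 4, also a fall (-0.69, adjusted p = 0.0409). CDKN1B, the CDK inhibitor p27 that accumulates in resting cells, was picked out after its values were seen. It had 10.51 and 10.86 without EGF, 10.12 and 10.12 in the passage 6 controls, 9.99 in the library labelled BRCA2 siRNA at passage 4 and 10.42 in the passage 4 control, and differed by 0.57 ± 0.13 at passage 6 (adjusted p = 0.0702). As for the members, the counts between controls became 0 when either passage 6 control was left out. Under the BRCA2 siRNA label 6 of the 61 fell at passage 6 without EGF (9.84%, against 8.89% of all tested genes), among them DCTPP1, which clears modified nucleotides (-0.68, adjusted p = 0.0473), TOP1 (-0.44, adjusted p = 0.0375), POLE3 (-0.44, adjusted p = 0.0387) and POLE4 (-0.42, adjusted p = 0.0477).

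Of 25 mitosis genes, 23 (92%) were lower without EGF at passage 6, against 52.7% of all tested genes, with a median log2 difference of -0.23. None passed, where 2.88% of all tested genes were called lower and 3.56% higher, and at an unadjusted p below 0.05 12 (48%) were lower, against 17.7%, and 0 higher, against 13.8%. Between controls 10 (40%) rose, against 7.71% of all tested genes, with a median of 0.49. MKI67, the usual proliferation marker, had 16.34 and 16.04 under BRCA2 siRNA without EGF, 16.13 and 16.23 in the passage 6 controls, 15.88 in the library labelled BRCA2 siRNA at passage 4 and 15.12 in the passage 4 control. It differed by 0.01 ± 0.12 at passage 6 (adjusted p = 0.976) and rose by 1.06 ± 0.15 between controls (adjusted p = 0.0245). CCND1, the D-type cyclin induced by mitogens, had 11.17 and 10.44 under BRCA2 siRNA without EGF, 12.36 and 12.39 in the passage 6 controls, 12.29 in the library labelled BRCA2 siRNA at passage 4 and 11.75 in the passage 4 control. It fell by 1.57 ± 0.25 under BRCA2 siRNA without EGF at passage 6 (limma, adjusted p = 0.0379), where siRNA and medium cannot be told apart. Its fall was larger than the difference of any member in that comparison, and its lowest libraries were those of BRCA2 siRNA without EGF. For 35 of 43 members the lowest library was the passage 4 control.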

How the data were processed

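Polyadenylated mRNA was purified on beads and made into 6 libraries with a ScriptSeq kit, per the labels' protocols. Per the submitters' processing notes, the tools were TopHat2 2.0.11 and DESeq2 (no version) and the build was hg19. The counter, strand setting, annotation and transformation were each not given in the sources used here. Deposited by the authors was 1 table. It holds normalised log2 values, made by the authors, with 57820 Ensembl gene rows, from -1.98 to 19.93, of which 25986 were 0 in every library. The deposited log2 values carry no counts, so depth per library and the precision it gives are unknown, and a shrinking transformation would understate differences of low genes.

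Symbols were matched to Ensembl identifiers through the table supplied with the reference (96.4% of tested genes). The 14763 genes whose mean of 2 to the value reached 10 were tested in 1 limma fit (limma 3.58.1, R 4.3.3; trend and robust prior, two-sided) over the 4 groups, with 2 residual degrees of freedom and a Benjamini-Hochberg threshold of 0.05. The procedure was tested on simulated data with the same spread in every library, so that test does not cover the unequal replicate pairs seen here. SE is that of the fit. Standing alone, each passage 4 library took its spread from the pairs. Members are described by counts and medians beside those of all tested genes, with no test of the list.

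Values by library are given for the members with the largest and smallest passage 6 difference of each sub-complex. They are also given for a fixed set of well-known members and for BRCA2, MKI67 and CCND1. Of the other genes that passed, at most 5 per direction and comparison are named, some with values by library and some with differences only. The remaining members are given with their differences, or only within the counts and medians of their sub-complex. Some genes the rule or the marker lists hold are not reported here. The members and lists were chosen with earlier results of these data known. Exon lengths and overlaps came from GENCODE v29 and promoters from RefSeq GRCh38.p14, builds other than the authors'. Alternatives covered the filter, the scaling, the spread estimate, pooled passages, averaged controls, each library left out and a replicate block.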

Additional observations from a re-analysis of the deposited data

Results flagged for a closer look

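For 7 genes the difference between passage 6 and passage 4 under BRCA2 siRNA differed from that under control siRNA when the difference itself was tested (limma, adjusted p below 0.05). Under BRCA2 siRNA the medium changed with the passage, and each passage 4 group was 1 library, the one labelled BRCA2 siRNA having more BRCA2 message than its control.

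Of the members, CDC45 differed by -1.52 ± 0.18 (SE, adjusted p = 0.0351), GINS4 by -1.34 ± 0.20 (adjusted p = 0.0465) and RFC3 by -1.07 ± 0.16 (adjusted p = 0.0473). In all 3 the replicates without EGF were closer together than the members' median gap of 0.47, at 0.20 for CDC45, 0.24 for GINS4 and 0.19 for RFC3.

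Of the other replication and G1/S genes, E2F7, a repressive E2F, differed by -1.28 ± 0.13 (-0.20 under BRCA2 siRNA, 1.08 under control siRNA, adjusted p = 0.0344). TIPIN differed by -1.09 ± 0.14 (-0.32 and 0.76, adjusted p = 0.0372). FBXO5, an inhibitor of the anaphase-promoting complex, differed by -0.883 ± 0.119 (-0.01 and 0.87, adjusted p = 0.0412). MCM8, a helicase of recombination, differed by -0.815 ± 0.121 (-0.25 and 0.57, adjusted p = 0.0466).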

How the results depend on the processing

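No median difference of the members changed sign under any alternative run, and the choice of libraries moved the counts of calls. Single members did change sign: with passages pooled 37 of 43 were below 0 at passage 6, with MCM5, ORC6, GINS4 and TK1 at 0.08, 0.06, 0.19 and 0.04, and under BRCA2 siRNA 31 were below 0 without replicate B and 37 with crossed letters, with MCM6, MCM5, MCM2, GINS4 and POLD1 at 0.08, 0.12, 0.12, 0.03 and 0.10 without replicate B. At passage 6, leaving out 1 library at a time gave 0 to 43 members lower and medians of -0.72 to -0.23, and the median was -0.15 with passages pooled, which puts the low passage 4 control among the controls. Between the controls, leaving out 1 library gave 0 to 43 higher, and 0 passed without a filter on low values or with controls A and B averaged. Under BRCA2 siRNA, leaving out 1 library gave 0 to 41 lower and 0 to 2 higher, with medians of -0.55 to -0.11. For the difference of differences it gave 0 to 43 lower with medians of -1.55 to -1.13, and the count was 0 without a filter, 1 after quantile normalization and 0 with averaged controls. At passage 4, 15 members were at least 1 higher, against 37 at least 0.5 higher. Deviations of the passage 6 A libraries from their group means had r = -0.17 between the groups across genes. This value cannot settle whether replicate letters pair the libraries. With the replicate block, 4 members were lower at passage 6 and 27 in the difference of differences, and 10 and 38 with crossed letters, a pairing added after the data were seen. Over all tested genes, 950 passed at passage 6 (146 with passages pooled, 50 with averaged controls, 76 without a filter, 1795 with crossed letters, 49 to 8952 leaving out 1 library). Between controls 2963 passed (0 without a filter or with averaged controls, 0 to 9849 leaving out 1 library). Under BRCA2 siRNA 2406 passed (30 pooled, 204 averaged, 0 without a filter, 937 with the block), and 569 in the difference of differences (353 after quantile normalization, 0 averaged, 0 without a filter, 1184 with the block, 1902 crossed). With 1 library left out of a pair, the other pair alone set the spread. The cause of the other shifts was not tested. Depth is unknown, so what it limits cannot be given.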
